A study of Homo sapiens with 6 samples.

Results

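The albumin family and the major carrier proteins of blood plasma were followed in Huh7 cells, a human hepatocellular carcinoma line, through 10 genes taken by name from a count table of 27394 gene names. These were ALB, AFP, AFM and GC, the albumin family on chromosome 4, and TF, TTR, HP, HPX, AMBP and RBP4, which encode other carriers. All 10 had 1 entry each and passed the filter on low counts. The labels give 3 libraries of a control cell line (sh_con, genotype WT) and 3 of a line in which CTSV was knocked down by shRNA, all Huh7 grown in DMEM with fetal bovine serum. CTSV encodes cathepsin V, a lysosomal protease, and the series design gives its role in liver cancer as the question. The sources used here do not say whether each line was 1 clone or a pool, or whether its libraries were separate cultures. The p-values therefore reflect library-to-library spread within each line, which could be technical.

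Hepatocytes make most plasma carrier proteins and release them through the secretory pathway. ALB encodes albumin, which carries fatty acids, bilirubin and metals and holds plasma osmotic pressure. AFP encodes alpha-fetoprotein, its counterpart in the fetus, which many liver cancers make again. AFM encodes afamin, which carries vitamin E and lipid-modified Wnt proteins, and GC encodes the vitamin D binding protein, which also binds actin. These genes arose from a shared ancestor by duplication. Among the other carriers, transferrin (TF) binds iron, haptoglobin (HP) binds haemoglobin and hemopexin (HPX) binds haem. Transthyretin (TTR) carries thyroxine and also holds the retinol binding protein (RBP4) in plasma. AMBP encodes a precursor that is cut into alpha-1-microglobulin and bikunin, and bikunin joins the inter-alpha-inhibitor heavy chains.

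The target gene fell in the knockdown line. CTSV had 755, 740 and 658 counts in the controls against 304, 264 and 296, a log2 fold change of -1.34 (SE 0.0958). Its adjusted p in edgeR's quasi-likelihood test was 7.2e-14. Levels here are CPM, library-scaled counts after TMM normalisation. Library totals lay between 16258803 and 18106207 counts. Hepatocyte markers other than the 10 genes were all measured (9 of 9), with summed levels of 12550.1 to 13749.6 CPM in controls and 14090.4 to 15026 CPM after knockdown. APOB alone, at means of 8410 CPM in controls and 9669 CPM after knockdown, made up most of these sums. They are therefore no measure of the hepatocyte markers as a whole. Of 6 leukocyte and macrophage markers, 2 had values, summing to 3.59 to 4.03 CPM and 2.48 to 3.51 CPM. For 2 of 4 endothelial markers the sums were 18.1 to 23.5 and 19.6 to 21.8 CPM, and for 4 of 5 stellate and fibroblast markers 12.3 to 15.1 and 21.1 to 27.0 CPM. Of the hepatocyte markers APOB, SERPINA1 and HNF4A rose, with log2 fold changes of 0.20, 0.35 and 0.18, and the keratin genes KRT8 and KRT18 fell, with -0.69 and -0.74. Called markers of other cell types were COL1A2 (stellate and fibroblast), which rose with a value of 1.02, and SOX9 (cholangiocyte), which fell with -0.17. Markers without a value were not analysed here. The summed levels of 3 of 4 cholangiocyte markers were 164 to 184 CPM in controls and 154 to 167 CPM after knockdown. The part of these marker sums in the results was not tested. The share of counts from mitochondrially encoded genes was 9.23% ± 0.245 in control and 11.6% ± 0.208 in knockdown cells (SD, n = 3 each), and its part in the results was not tested beyond leaving these genes out of the fit. In bulk libraries, fewer cells that make an mRNA and less of it per cell cannot be told apart.

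In the coordinates of the table on hg38, ALB spans 73397114 to 73421412 of chromosome 4 (ENSG00000163631), AFP 73431138 to 73456174 (ENSG00000081051) and AFM 73481683 to 73504001 (ENSG00000079557), all on the plus strand. The gap from ALB to AFP was 9.73 kb and that from AFP to AFM 25.5 kb. GC (ENSG00000145321) lies on the minus strand at 71741693 to 71804041, and 1593 kb separate it from ALB. The table places the ALB and AFP gene starts upstream of their RefSeq start sites. The principal transcripts in GENCODE 29 have 15 exons in ALB, AFP and AFM and 13 in GC. RefSeq promoter windows of GRCh38.p14 were found for 7 of the 10 genes. The 250 bases before the RefSeq start sites of ALB (chr4:73404037-73404286), AFP (chr4:73435971-73436220) and AFM (chr4:73481495-73481744) are shown, plus strand and 5′ to 3′. They were chosen because each of these neighbours was called as a rise, that of AFM from low counts and not in every fit. Capitals mark the TATA box (TATAAA) and the CCAAT box (CCAAT), on either strand.
ALB: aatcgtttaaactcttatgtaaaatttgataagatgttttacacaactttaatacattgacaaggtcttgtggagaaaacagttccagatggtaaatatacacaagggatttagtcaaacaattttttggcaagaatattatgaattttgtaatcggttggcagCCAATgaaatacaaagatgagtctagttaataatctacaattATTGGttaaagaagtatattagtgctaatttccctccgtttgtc
AFP: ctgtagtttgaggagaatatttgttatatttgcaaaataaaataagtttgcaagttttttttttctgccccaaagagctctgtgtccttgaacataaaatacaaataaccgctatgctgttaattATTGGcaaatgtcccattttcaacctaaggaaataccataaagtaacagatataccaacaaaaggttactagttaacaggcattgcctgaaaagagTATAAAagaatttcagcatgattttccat
AFM: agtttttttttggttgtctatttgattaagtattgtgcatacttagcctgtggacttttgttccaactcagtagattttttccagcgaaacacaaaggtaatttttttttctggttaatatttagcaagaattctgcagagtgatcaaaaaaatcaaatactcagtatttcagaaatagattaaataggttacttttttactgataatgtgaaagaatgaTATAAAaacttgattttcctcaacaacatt

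TATAAA stood at -29 in AFP and -30 in AFM, and 11.5% of 35116 RefSeq windows of 300 bases held it on either strand. ALB had no TATAAA in its window. CCAAT stood at -86 in ALB and, on the other strand, at -44 in ALB and -125 in AFP, and 34.6% of all windows held it. A further match lay at 19 to 23 in AFP, past the stretch shown. The C/EBP core TTGCNNAA, left in lower case, had 1 match in each of the 3 windows and was held by 10.5% of all windows. These matches describe letters and were not tested as binding sites.

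In knockdown libraries all 4 albumin family genes rose, and so did TF and AMBP, while RBP4, TTR and HP fell and HPX was not called. Thus 6 of the 10 genes rose and 3 fell. Across 15968 genes tested, 40.3% were called (adjusted p under 0.05), 18.7% as rises and 21.6% as falls. These were 2982 rises and 3451 falls, and 2256 and 4791 with offsets for transcript length and GC content, under which the 10 genes kept their calls. The median log2 fold change, knockdown over control, was 0.49 for the albumin family, -0.13 for the other 6 carriers and 0.02 for all genes tested. Among the 2220 tested genes with a mean of at least 100 CPM, 18.9% rose and 48.6% fell, with a median of -0.12. At that level stood ALB, AFP, GC, TF and AMBP, which rose, and TTR and RBP4, which fell. The groups did not overlap in 8 of the 10 genes, against 49.2% of all genes tested. Only AFM and HP changed at least 2-fold, and 4.23% of tested genes rose and 0.958% fell by that much.

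**Figure D1:**
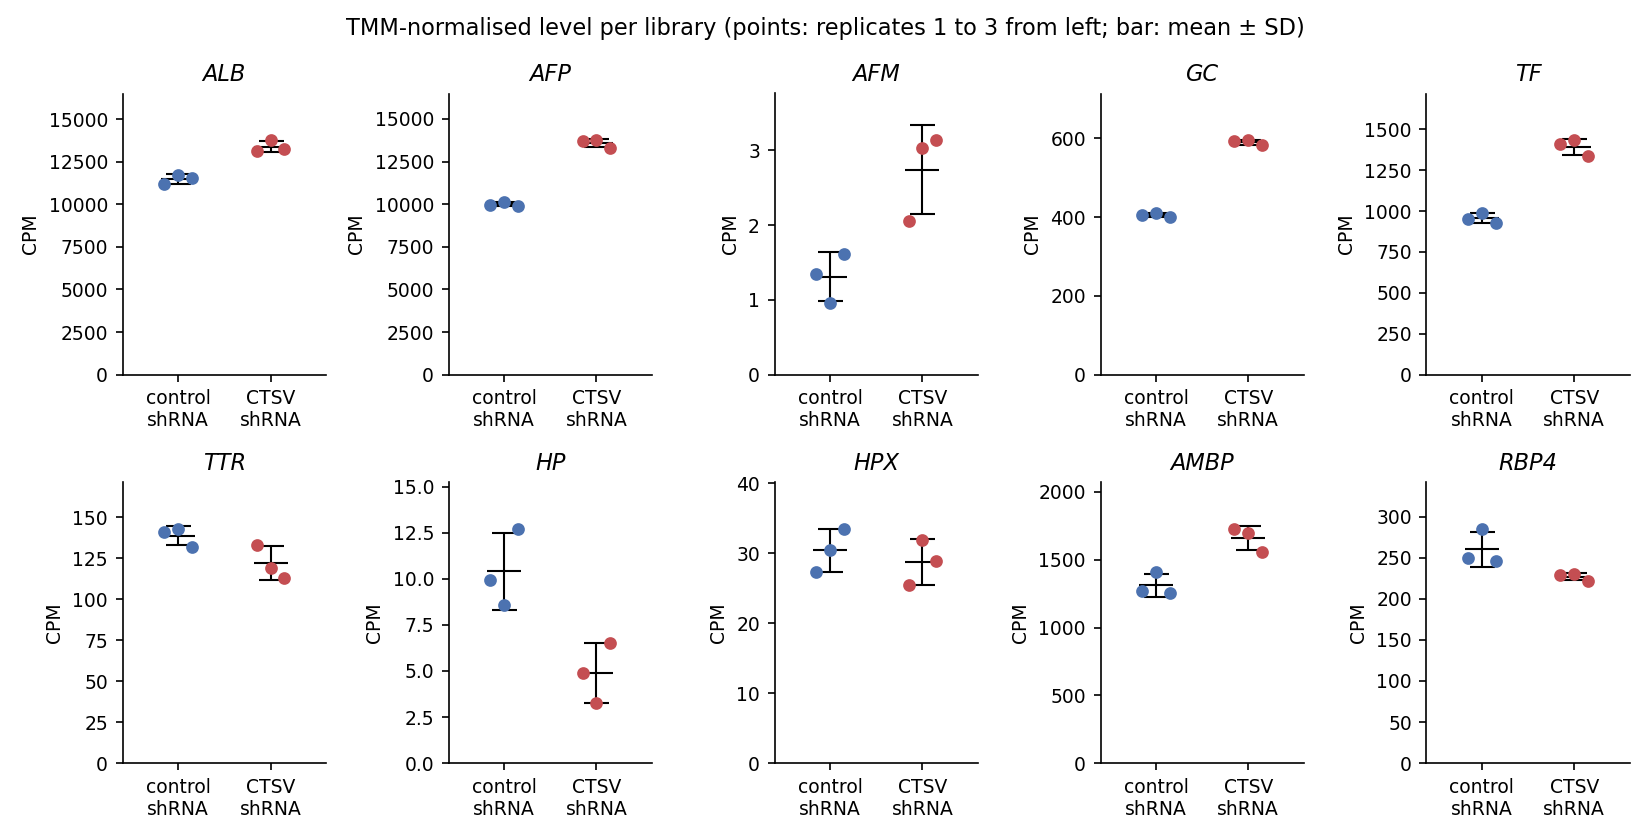
Normalised level (CPM) of each of the 10 genes in the 3 control shRNA libraries (blue) and the 3 CTSV shRNA libraries (red), with the mean and SD in black. ALB, AFP, AFM, GC, TF and AMBP lie higher in every knockdown library than in every control library, RBP4 and HP lie lower, and TTR and HPX overlap.

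ALB and AFP were among the most counted genes of these cells. ALB was at 11176, 11701 and 11568 CPM in the controls and at 13125, 13749 and 13259 CPM after knockdown. The groups did not overlap, and the rise was small next to the level. The log2 fold change of ALB was 0.22 (SE 0.0291, adjusted p = 1.1e-07, edgeR), a fold of 1.17 with a 95% interval of 1.12 to 1.21. AFP was at 9959, 10149.5 and 9888 CPM in the controls and at 13713, 13741 and 13305 CPM after knockdown. It varied little within a group, with coefficients of variation of 1.35% and 1.80%. AFP rose by 0.44 (SE 0.0284, adjusted p = 3.98e-15, edgeR), a fold of 1.36 with a 95% interval of 1.31 to 1.41. By mean CPM, ALB ranked 2 and AFP 5 among all gene names in controls, and ALB 5 and AFP 4 in knockdown libraries. Offsets for coding length and GC content, chosen after seeing the data, brought the log2 fold change of ALB to 0.10, still called (adjusted p = 0.00126, edgeR).

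The ratio of adult to fetal mRNA was lower in all 3 knockdown libraries than in any control. The ratio of ALB to AFP counts was 1.12, 1.15 and 1.17 in the controls. It was 0.957, 1.00 and 0.997 in the knockdown libraries. In raw counts ALB led in every control library, and after knockdown the pair was level or AFP led. Per transcript length (2263 bases for ALB, 2484 for AFP) the mean of ALB was higher in both groups. Which gene leads thus depends on the length used. Mean count ratios were 1.15 ± 0.0242 and 0.985 ± 0.0240 (SD, n = 3 each), a log2 difference of -0.22. An exact two-sided permutation test gave p = 0.1, the smallest that 3 against 3 libraries allow. Such a ratio does not depend on library size or on scaling of whole libraries. Length and GC offsets act gene by gene and were not applied to it. In the fit with transcript length they gave log2 fold changes of 0.15 for ALB and 0.35 for AFP. Leaving out each library in turn gave log2 differences between -0.24 and -0.20.

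**Figure D2:**
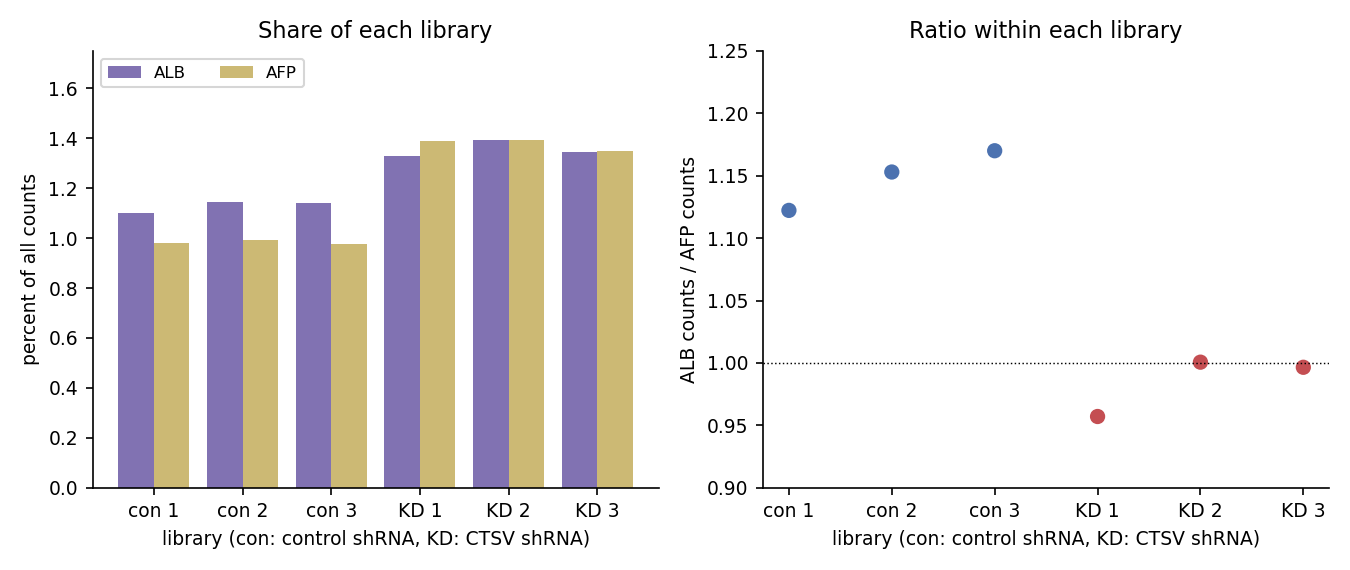
Left, ALB and AFP as a percentage of all counts in each library (bars from 0). Right, the ratio of ALB to AFP counts in the same libraries, on an axis that starts at 0.9, with 1 as a dotted line; control libraries sit between 1.12 and 1.17 and knockdown libraries between 0.957 and 1.00.

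ALB and AFP together made up most of the counts of the 10 genes. ALB took 1.13% ± 0.0248 of all counts in control cells and 1.36% ± 0.0343 after knockdown, and AFP 0.984% ± 0.00896 and 1.38% ± 0.0240 (SD, n = 3 each). The 10 genes took 2.38%, 2.46% and 2.42% in the controls and 3.13%, 3.20% and 3.08% after knockdown. The 6 carriers outside the albumin family took 0.266% ± 0.0123 and 0.348% ± 0.0150 (SD, n = 3 each). TF and AMBP, the most counted of these 6, rose, while 3 fell and HPX was not called, at a median log2 fold change of -0.13. No test was made on these sums.

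GC rose and had the lowest coefficients of variation of the 10 genes. The vitamin D binding protein gene was at 406, 409 and 401 CPM in controls and at 593, 595 and 583 CPM in knockdown libraries. The groups lay far apart, with coefficients of 1.05% and 1.09%. GC rose by 0.54 (SE 0.0422, adjusted p = 6.57e-13, edgeR), a fold of 1.46 with a 95% interval of 1.37 to 1.54. AFM was near the detection limit, with raw counts of 24, 16 and 26 in controls and 34, 50 and 57 in knockdown libraries. Its levels were 1.31 ± 0.330 and 2.74 ± 0.595 CPM (SD, n = 3 each), and the groups did not overlap. AFM rose by 1.06 (SE 0.359, adjusted p = 0.0165, edgeR), with a wide 95% interval of 0.34 to 1.79. That call was lost without control replicate 2 (adjusted p = 0.0661), without knockdown replicate 2 (0.0657) and without knockdown replicate 3 (0.0767, edgeR).

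Of the iron and haem carriers, TF rose, HP fell and HPX was not called. The transferrin gene TF (ENSG00000091513, chromosome 3, 133745956 to 133779006, plus strand) was at 950.1, 989 and 929 CPM in controls. In knockdown libraries it was at 1409, 1432 and 1333 CPM, above every control. TF rose by 0.54 (SE 0.0401, adjusted p = 1.73e-13, edgeR), a fold of 1.46. With transcript length and GC offsets the value was 0.28, and with coding length and GC offsets 0.40, both called. The TF transcript in GENCODE 29 holds 20602 bases and ends at 133796640, past the gene end in the table, and this transcript length entered the first of these offsets. 3 genes overlap the gene span of TF in GENCODE 29, introns included, on the same strand. SRPRB fell, with a log2 fold change of -0.57, while the pseudogene AC080128.1 had 44, 28 and 49 counts in controls and 94, 113 and 110 after knockdown, and TFP1 had 14, 20 and 20 against 33, 26 and 20.

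HP (ENSG00000257017, chromosome 16, 72054592 to 72061055, plus strand), an acute phase gene in liver, was low in Huh7. Raw counts were 177, 143 and 204 in controls and 81, 54 and 118 in knockdown libraries, which did not overlap. Levels were 10.4 ± 2.09 and 4.89 ± 1.61 CPM (SD, n = 3 each). The log2 fold change of HP was -1.08 (SE 0.199, adjusted p = 3.17e-05, edgeR), a fold of 0.472 with a 95% interval of 0.357 to 0.625. The near copy HPR starts 2.17 kb downstream. It had 34, 30 and 40 counts in controls and 32, 21 and 27 in knockdown libraries, and a log2 fold change of -0.40 that was not called (adjusted p = 0.417, edgeR). The ratio of HP to HPR counts, computed after both values were seen, was 5.21, 4.77 and 5.10 in controls and 2.53, 2.57 and 4.37 after knockdown. The sources used here do not say how reads that match both were counted. HP is also overlapped on the other strand by TXNL4B, with 422, 382 and 395 counts in controls and 405, 260 and 392 in knockdown libraries, and strand use is not stated, so the level of HP is uncertain.

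HPX (ENSG00000110169, chromosome 11, 6431049 to 6442617, minus strand) was at 27.3, 30.4 and 33.5 CPM in controls and 25.4, 31.9 and 28.8 CPM in knockdown libraries. The groups overlapped, and the log2 fold change of -0.08 was not called (adjusted p = 0.548, edgeR). Its 95% interval of -0.28 to 0.12 bounds the difference without showing that the groups were alike.

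The partners TTR and RBP4 both fell, by similar small amounts. TTR (ENSG00000118271, chromosome 18, 31591726 to 31599021, plus strand) was at 141, 143 and 132 CPM in controls and 133, 119 and 113 CPM in knockdown libraries. Knockdown replicate 1 lay just above control replicate 3, so the groups overlapped. TTR fell by 0.19 (SE 0.0586, adjusted p = 0.00975, edgeR), and the call was lost without knockdown replicate 2 (adjusted p = 0.0534) and without knockdown replicate 3 (0.102). RBP4 (ENSG00000138207, chromosome 10, 93591687 to 93601744, minus strand) was at 249, 285 and 246 CPM in controls and 228, 230.2 and 222 CPM in knockdown libraries. All 3 knockdown values lay below the lowest control. RBP4 fell by 0.20 (SE 0.0519, adjusted p = 0.00219, edgeR), a fold of 0.872. Without control replicate 2, the highest library, its log2 fold change was -0.13 and still called (adjusted p = 0.0294), and with coding length and GC offsets it was also -0.13. The ratio of TTR to RBP4 counts, computed after both values were seen, was 0.535 ± 0.0321 in control and 0.537 ± 0.0403 in knockdown cells (SD, n = 3 each). Both falls were close to the median of -0.12 for genes of at least 100 CPM.

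AMBP rose, as did 3 inter-alpha-inhibitor heavy chain genes. AMBP (ENSG00000106927, chromosome 9, 114060127 to 114078472, minus strand) was at 1270.0, 1409 and 1258 CPM in controls and 1727, 1694 and 1556 CPM in knockdown libraries, with no overlap. It rose by 0.34 (SE 0.0433, adjusted p = 6.03e-08, edgeR), a fold of 1.26 with a 95% interval of 1.19 to 1.34. The heavy chain gene ITIH2 was at 1168 ± 21.7 and 1659.9 ± 25.1 CPM (SD, n = 3 each) and rose by 0.51. ITIH1 and ITIH3, named after their values were seen, rose from low counts, with log2 fold changes of 1.84 and 1.45. ITIH1 had 41, 76 and 54 counts in controls and 218, 170 and 237 after knockdown. ITIH3 had 12, 10 and 10 against 39, 36 and 13, a call lost on leaving out knockdown replicate 1 (adjusted p = 0.112) or 2 (0.0983, edgeR).

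**Figure D3:**
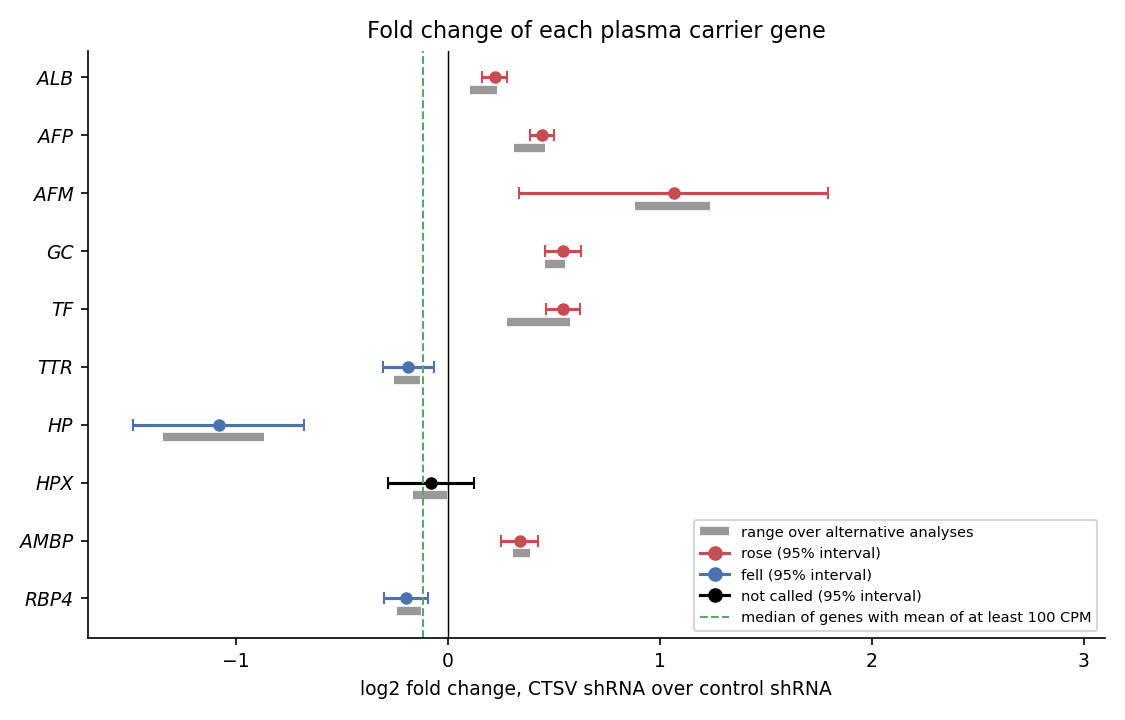
Log2 fold change of each gene, knockdown over control, with its 95% interval (coloured by call) and, in grey, the range over the alternative analyses. The albumin family, TF and AMBP lie right of 0 and of the dashed median of -0.12 for genes with a mean of at least 100 CPM; HP lies far left and the HPX interval includes 0.

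Per coding length, the 10 genes spanned a wide range of levels. In controls ALB stood at 6284 ± 149 CPM per coding kilobase, AFP at 5473 ± 74.1, AMBP at 1243 ± 79.6 and TF at 456 ± 14.4. RBP4 followed at 432 ± 35.8, TTR at 315 ± 13.0, GC at 285 ± 2.99, HPX at 21.9 ± 2.22, HP at 8.55 ± 1.72 and AFM at 0.729 ± 0.184 CPM per coding kilobase (SD, n = 3 each). Neighbours in this order had separate ranges except TF and RBP4, which overlapped. In knockdown libraries AFP (7436 ± 134) and ALB (7322 ± 180 CPM per coding kilobase) overlapped. GC moved from place 7 to place 5, above RBP4 and TTR, at 415 ± 4.52 against 376 ± 7.28 and 276 ± 23.5 CPM per coding kilobase. Per transcript length the controls had GC at place 4 and TF at place 7. After knockdown, also per transcript length, ALB stood above AFP, at 5911 and 5469 CPM per transcript kilobase. The middle of the order, and which of ALB and AFP led after knockdown, thus depend on the length used.

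The genes around the albumin cluster were set beside it. The window from 1 Mb before GC to 1 Mb after AFM held 21 other tested genes, of which 2 rose, 9 fell and 10 were not called, where 18.7% of all tested genes rose and 21.6% fell. On the side of ALB away from AFP, AC053527.1, the scaffold protein gene ANKRD17, the pseudogene HMGA1P2 and the cytochrome oxidase assembly gene COX18 were not called, at log2 fold changes of 0.11, 0.05, 0.36 and -0.19. AC053527.1 (0.638 CPM in controls, 0.695 after knockdown, SE 0.583) and HMGA1P2 (0.531 and 0.686 CPM, SE 0.591) were near the detection limit. Only a large change in either could have been called. Beyond them ADAMTS3, a procollagen protease gene, rose by 0.91 and NPFFR2, a neuropeptide receptor gene, was not called (1.09, adjusted p = 0.0581, edgeR). It was called with the filter at a mean CPM of at least 1 (adjusted p = 0.0376, edgeR), which made 3 rises in the window. ANKRD17 depended on the offsets, at -0.14 (adjusted p = 0.011) with length and GC offsets and -0.29 (5.66e-07, edgeR) with coding length and GC offsets. With length and GC offsets COX18 was called, at -0.33 (adjusted p = 0.0241, edgeR).

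Downstream of AFM most of the nearest genes fell. RASSF6, a Ras association domain gene, had a log2 fold change of 0.38 and was not called (adjusted p = 0.174). CXCL8, the neutrophil chemokine gene that starts 237 kb past the end of AFM, fell by 2.51, from 43.2 ± 3.0 to 7.59 ± 1.29 CPM (SD, n = 3 each). CXCL5 fell from 85.6 ± 5.49 to 30.3 ± 3.53 CPM (SD, n = 3 each). CXCL1 and CXCL3 fell, with log2 fold changes of -1.12 and -1.17, and CXCL6 was not called (-0.50, adjusted p = 0.0886, edgeR). Of 6 tested CXCL genes in the window 5 fell, where 21.6% of all tested genes fell. The fifth was CXCL2, named after its value was seen. CXCL3 was not called without control replicate 2 (adjusted p = 0.0663) or knockdown replicate 2 or 3 (0.0984 and 0.117). CXCL2 was not called without control replicate 2 (0.0588) or knockdown replicate 1 (0.119), and CXCL6 was called without control replicate 1 (0.0482, edgeR). The number of rises in the window was 1 without control replicate 2 and with either length offset. Falls in the window numbered 13 with length and GC offsets and 11 with coding length and GC offsets.

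**Figure D4:**
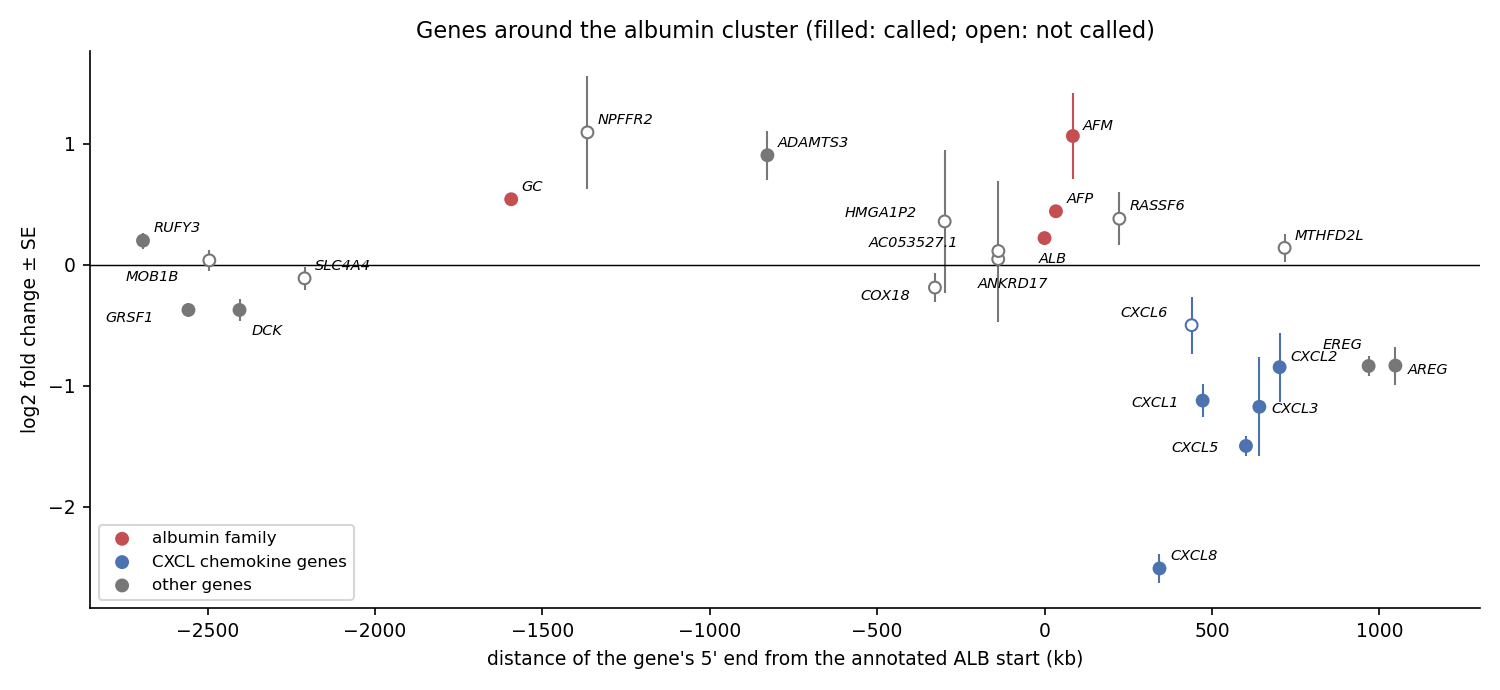
Log2 fold change (± SE) of tested genes against the distance of their 5′ ends from the annotated ALB start, in kb, with called genes filled. The albumin family (red) lies above 0, the CXCL chemokine genes (blue) below it, and the 4 other genes nearest before ALB are open.

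Other proteins that hepatocytes secrete as carriers or inhibitors were taken from a list of 28 genes, of which 23 had values and 21 were tested. Of these 9 rose and 2 fell, beside 18.7% and 21.6% over all genes, and the median log2 fold change was 0.35. APOH, which binds phospholipids, rose by 1.02 from 32.7 ± 1.45 to 66.3 ± 0.498 CPM. The corticosteroid binding globulin gene SERPINA6 rose by 0.88 from 40.7 ± 1.32 to 74.8 ± 2.02 CPM (SD, n = 3 each). Both falls were of orosomucoid genes, which encode acute phase carriers of basic drugs and are near copies of each other, so that their counts may be split unevenly. ORM1 had 1537, 1514 and 1186 counts in controls and 612, 725 and 884 after knockdown (log2 fold change -0.95), and ORM2 had one of -0.93.

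Acute phase genes, some of them also among the secreted carriers, came from a list of 20, of which 14 had values and 12 were tested. Of the 12 tested, 2 rose and 4 fell, beside 18.7% and 21.6% of all genes tested, and their median was -0.03. HAMP, which encodes the iron hormone hepcidin, fell by 1.37, from 473, 430 and 261 counts in controls to 181, 155 and 116 in knockdown libraries. SERPINA1, the alpha-1-antitrypsin gene, rose by 0.35. Coding length and GC offsets gave 1 rise and 8 falls in this list.

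Receptors and partners of the carriers came from a list of 24, of which 17 had values and were tested. Of these 17, 6 rose and 3 fell, at a median of 0.13, where 18.7% of all tested genes rose and 21.6% fell. FCGRT, the neonatal Fc receptor that recycles albumin, rose by 0.47, from 31.8 ± 2.90 to 44.1 ± 2.91 CPM (SD, n = 3 each). AMN, which anchors the cubilin receptor, rose by 1.18, and the retinol dehydrogenase gene RDH10 by 0.35. The endocytic adaptor gene DAB2 fell by 0.36. The transferrin receptor genes TFRC (0.13) and TFR2 (0.51) and the endocytic receptor gene LRP1 (0.18), named after their values were seen, also rose. HMOX1 (-0.72) and SLC40A1 (-0.21), likewise named after their values were seen, fell. With coding length and GC offsets TFRC was at -0.02 and not called and LRP1 at -0.14 and called, and TFRC was also not called without control or knockdown replicate 2 (adjusted p = 0.0538 and 0.0893, edgeR). The falls numbered 5 with length and GC offsets and 6 with coding length and GC offsets.

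Of 33 tested transcription factors known from the albumin and AFP promoters 10 rose and 7 fell, against 18.7% and 21.6% of all genes, and their median of 0.02 was that of all genes. HNF4A, a master regulator of hepatocyte genes, rose by 0.18, a call lost on leaving out knockdown replicate 2 (adjusted p = 0.0864, edgeR) or with length and GC offsets (0.0920). Of the C/EBP genes, CEBPA fell by 0.32, CEBPB by 0.97 and CEBPG by 0.60, and CEBPD, named after its value was seen, was not called (0.10, adjusted p = 0.76, edgeR). ONECUT1 and NR2F1 rose by 0.54 and 0.52. The AFP repressor genes ZHX2 (-0.10), ZBTB20 (0.02) and ZFHX3 (-0.01) were not called. With transcript length and GC offsets ZBTB20 (-0.28) and ZFHX3 (-0.19) were called, and with coding length and GC offsets ZHX2 (-0.23) and ZFHX3 (-0.34) were. The number of rises in this list was 6 without knockdown replicate 2 and with DESeq2, and 4 with 11 falls with length and GC offsets.

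The machinery that brings secreted proteins into the endoplasmic reticulum was also counted. Of 29 tested genes of signal peptide recognition, translocation, disulphide formation and export, 17 fell and 5 rose, at a median of -0.23, where 21.6% of all tested genes, and 48.6% of those with at least 100 CPM, fell and 18.7% and 18.9% rose. The signal recognition particle genes SRP72 and SRP68 fell by 0.61 and 0.42, the receptor subunit gene SRPRB by 0.57, and the cargo receptor gene SURF4 by 0.33. SRP72 was at 176 ± 8.98 and 115 ± 5.83 CPM (SD, n = 3 each). The count of rises was 2 without control replicate 1, 1 without control replicate 3, 1 without knockdown replicate 2, 3 without knockdown replicate 3, and 1 with either length offset.

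**Figure D5:**
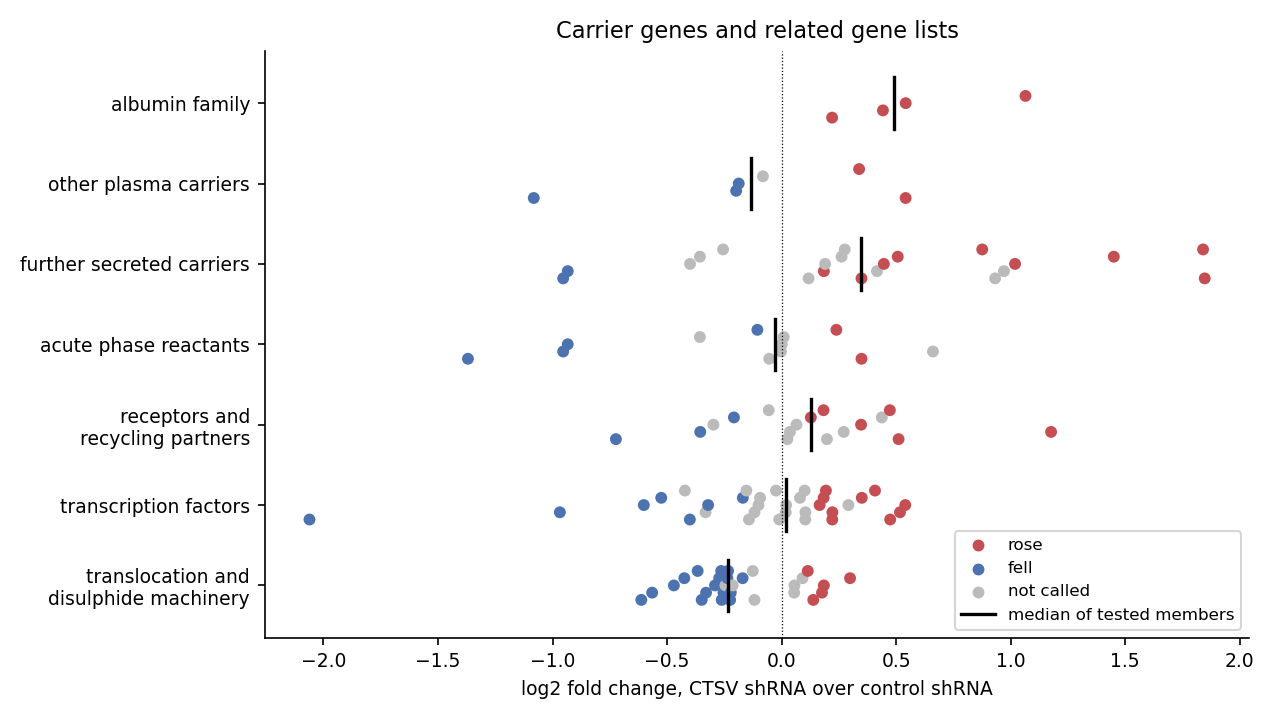
Log2 fold change of each tested gene (points, coloured by call) in the albumin family, the other carriers and the related lists, with the median of each as a black bar. The medians run from 0.49 for the albumin family to -0.23 for the translocation and disulphide machinery.

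Among the 6142 tested genes whose average log2 CPM reached 5, those whose log2 CPM followed ALB most closely over the 6 libraries were SERINC1, LUC7L and ZNF84 (Pearson's r = 0.997, 0.997 and 0.995). For AFP they were GC, CLSTN3 and OLMALINC (r = 0.999, 0.999 and 0.998). The 6 points fall into the study's 2 groups and share their libraries, so any gene with a steady rise scores high, and no p is given.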

How the data were processed

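RNA-seq read counts of 6 Huh7 libraries were taken from 1 table of all libraries. The authors deposited raw whole-number counts per gene, and the submitters' processing notes name HISAT2, StringTie, SAMtools and hg38 without versions. Per the labels' protocols, TRIzol RNA went into NEBNext Ultra II mRNA libraries. The sources used here do not give the counting tool, annotation, strand setting or treatment of multiply matching reads. Of 28915 entries, 1521 repeated a gene name with equal values and were removed.

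Tests used edgeR 4.0.16 under R 4.3.3 (quasi-likelihood test, TMM, filterByExpr by group, Benjamini-Hochberg over all 15968 genes tested, called at an adjusted p under 0.05), with no covariate. The biological coefficient of variation was 6.87%. Fold changes are knockdown over control, and "rose" and "fell" mean called. Replicates of a group differed by more than counting noise. Lengths came from the GENCODE 29 principal transcript and its coding part, and promoter windows from RefSeq. The pipeline was tested on simulated data.

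The 10 genes and the lists were chosen with earlier results of these data known. The genes named are the 10, CTSV, HPR, up to 4 called genes per list with the smallest adjusted p, fixed transcription factors (1 of which is not reported here), the 6 tested genes nearest ALB on each side, and the 3 genes most like ALB and AFP. Alternatives were RLE size factors, no filter, a mean CPM of at least 1, DESeq2 1.42.0, a replicate block, leaving out each library, library sizes without the 10 genes or without mitochondrial genes, length and GC offsets (loess, span 0.5), and a 2-fold limit. Coding length offsets were added after seeing the data.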

Additional observations from a re-analysis of the deposited data

How the results depend on the processing

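All 10 genes kept their direction under all 15 alternative fits. The calls of ALB, AFP, GC, TF, HP, AMBP and RBP4 held in each, and HPX was called in none. Leaving out 1 library gave log2 fold changes of 0.88 to 1.24 for AFM and -0.26 to -0.13 for TTR, with the lost calls named above. It also gave 1 to 2 rises among the chromosome 4 neighbours, 6 to 8 among the transcription factors and 1 to 4 in the secretory machinery.

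The replicate numbers did not pair the libraries (correlations of same-numbered deviations -0.01, -0.00 and 0.02). With the number as a replicate block 2996 genes rose and 3490 fell, against 2982 and 3451, and still 6 of the 10 genes rose and 3 fell.

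A limit of at least 2-fold left 676 rises and 153 falls over all genes, 1 and 1 among the 10, 0 and 4 among the chromosome 4 neighbours, 4 and 0 among the further secreted carriers, 0 and 1 among acute phase genes, 1 and 0 among receptors and partners, 0 and 1 among transcription factors, and 0 and 0 in the secretory machinery.

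Length and GC offsets gave 2256 rises and 4791 falls over all genes, 1 rise and 13 falls among the chromosome 4 neighbours, 5 falls among receptors and partners, 4 rises and 11 falls among transcription factors, and 1 rise in the secretory machinery. With coding length these were 2124 and 4767 over all genes, 1 rise and 11 falls among the neighbours, 1 rise and 8 falls among acute phase genes, 6 falls among receptors, 6 rises among transcription factors and 1 rise in the machinery. DESeq2 gave 6 rises among transcription factors, and no filter on low counts gave 2 rises in the machinery. Without mitochondrial counts the share of the 10 genes differed by 0.885 percentage points, against 0.720 with them. The cause of these shifts was not tested. Low counts limit the precision of AFM and ITIH3, and of the neighbours AC053527.1, HMGA1P2 and NPFFR2.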
